A study of Mus musculus with 9 samples.

Results

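The enzymes that use arginine, make nitric oxide and make or acetylate polyamines were examined in mouse lung RNA through 10 genes chosen by symbol, out of 34638 genes in the deposited table. They are *Slc7a2*, which encodes a cationic amino acid transporter that brings arginine into cells; the arginases *Arg1* and *Arg2*; the nitric oxide synthases *Nos2* and *Nos3*; *Ass1* and *Asl*, whose products rebuild arginine from citrulline; and *Odc1*, *Srm* and *Sat1*, which act on ornithine, putrescine, spermidine and spermine. All 10 were found and all 10 passed the filter on low expression. The samples were lungs of wild-type C57BL/6 mice, 3 per group and 1 library per mouse. The PBS control mice were challenged with phosphate-buffered saline. The IL-33 mice received 0.5 µg recombinant mouse IL-33, an alarmin released by damaged epithelium, into the trachea on days 0, 1, 2 and 3. The IL-33+LM8 mice received the same challenges and, before them, 10 mg/kg intraperitoneal LM8, an inhibitor of MyD88, the adaptor protein through which the IL-33 receptor signals. The study's methods describe the first of these groups and the second as female, 6 to 8 weeks old, with lungs taken on day 4, and give no age or sex for the IL-33+LM8 mice. No group given LM8 without IL-33, or its vehicle with IL-33, was analysed here, so that LM8 and the handling that came with it cannot be told apart.

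Arginine sits at a branch point. Arginases split it into urea and ornithine, the precursor of proline and polyamines, whereas nitric oxide synthases turn it into nitric oxide and citrulline, and citrulline can be recycled into arginine by argininosuccinate synthase and argininosuccinate lyase. In the lung, arginase 1 is a well-known product of alternatively activated macrophages and inducible nitric oxide synthase is a classic product of inflammatory macrophages and epithelium, while the endothelial synthase serves vascular tone.

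Between 53877663 and 90607218 reads per library were counted on genes, and each of the 10 genes was counted between 135 times (*Nos2*, PBS control replicate 2) and 38931 times (*Arg1*, IL-33 replicate 1). Levels are given as FPKM, fragments per kilobase of transcript scaled to library size, which allows comparison between genes; differences were tested on the counts with edgeR's quasi-likelihood test, p-values adjusted by Benjamini-Hochberg over all genes tested, and are given as log2 fold changes with their standard error (SE). A gene is said to have risen or fallen where its adjusted p was under 0.05. With 3 mice against 3, an exact two-sided permutation test cannot give a p under 0.1. Lung markers were abundant: the surfactant and alveolar epithelial list summed to between 6564 and 14085 FPKM in every mouse. One feature of the libraries had to be set beside the arginases. The liver transcripts *Alb*, *Apoa1* and *Ttr* together reached between 186 and 337 FPKM in 6 libraries, 2 of each group, and at most 0.627 FPKM in the other 3 (PBS control replicate 3, IL-33 replicate 1 and IL-33+LM8 replicate 3). Because *Arg1*, *Ass1* and *Asl* are also enzymes of the hepatic urea cycle, values are given with and without these libraries where they touch a result. Among the libraries that hold them, their sum was 186 and 209 FPKM in the PBS control mice, 203 and 272 FPKM in the IL-33 mice, and 317 and 337 FPKM in the IL-33+LM8 mice, which were thus the highest. In whole lung, fewer cells of a type and less RNA per cell cannot be told apart.

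With IL-33, 8 of the 10 genes rose and 0 fell (0 lower also at an unadjusted p under 0.05 in edgeR, and with DESeq2 and limma), where 54.6% of all genes tested passed in either direction, 27.4% higher and 27.2% lower. The 4 that rose at least 2-fold were *Arg1*, *Nos2*, *Slc7a2* and *Ass1*, against 10.8% of all genes that rose at least 2-fold. The other 4 risers were *Srm*, *Arg2*, *Odc1* and *Sat1*, and the 2 that did not pass were *Asl* and *Nos3*. The same 8 genes were higher in every IL-33 mouse than in any PBS control mouse, as were 31.7% of all genes tested. The median log2 fold change of the 10 was 0.90, beside -0.0053 over all genes tested.

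With LM8 added to IL-33, 4 of the 10 genes fell relative to IL-33 alone (*Arg1*, *Slc7a2*, *Nos2* and *Sat1*), 1 rose (*Arg2*) and 5 did not pass, where 26.5% of all genes tested passed, 13.9% lower and 12.6% higher. Only *Arg1* fell at least 2-fold, as did 3.93% of all genes tested. These 4 falling genes did not overlap between the groups, nor did *Arg2*; over all genes tested 22.0% lay wholly lower and 21.2% wholly higher. Against PBS control, 7 of the 10 genes were still higher in IL-33+LM8 mice and 0 lower, also by the other tools and at an unadjusted p under 0.05, where 29.7% of all genes passed, 16.3% higher and 13.4% lower. Of these, *Arg1*, *Nos2*, *Arg2* and *Srm* were at least 2-fold higher, against 5.87% of all genes. Those 7 genes lay wholly above the controls, as did 23.4% of all genes, and *Sat1* lay wholly below them, as did 23.9%. The median log2 fold change of the 10 was -0.20 against IL-33 and 0.88 against PBS control, beside -0.0062 and 0.0035 over all genes tested. The comparisons share mice, so that they are not independent of each other.

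Promoter sequence was at hand for 3 of the 10 genes, *Ass1*, *Odc1* and *Sat1*, which represent a gene that rose with IL-33 and did not pass with LM8, a gene with the same calls at a higher level, and a gene that rose and then fell. The 250 bases before the gene start are shown, from RefSeq on build GRCm38.p6, 5′ to 3′ on the gene's strand, with matches to the motifs searched on both strands in capitals. The stretches lie at chr2:31470020-31470269 (plus strand, *Ass1*), chr12:17544623-17544872 (plus strand, *Odc1*) and chrX:155216450-155216699 (minus strand, *Sat1*).
Ass1: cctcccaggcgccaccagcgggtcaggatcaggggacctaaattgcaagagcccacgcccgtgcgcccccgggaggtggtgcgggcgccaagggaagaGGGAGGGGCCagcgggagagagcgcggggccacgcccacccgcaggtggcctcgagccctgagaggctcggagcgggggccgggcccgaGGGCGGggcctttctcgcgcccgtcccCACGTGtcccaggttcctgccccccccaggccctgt
Odc1: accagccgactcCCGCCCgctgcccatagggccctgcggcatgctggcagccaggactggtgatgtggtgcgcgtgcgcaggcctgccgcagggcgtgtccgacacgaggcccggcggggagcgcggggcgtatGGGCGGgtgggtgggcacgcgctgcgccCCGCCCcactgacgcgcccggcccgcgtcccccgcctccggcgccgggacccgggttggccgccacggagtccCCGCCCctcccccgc
Sat1: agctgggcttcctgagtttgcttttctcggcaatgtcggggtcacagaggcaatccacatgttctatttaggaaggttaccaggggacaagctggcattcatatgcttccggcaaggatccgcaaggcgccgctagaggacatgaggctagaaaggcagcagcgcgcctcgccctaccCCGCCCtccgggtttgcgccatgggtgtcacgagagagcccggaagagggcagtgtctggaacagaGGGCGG
The motifs were the E-box CACGTG, held by 6.02% of 32851 mouse promoters of this length, the GC box GGGCGG (32.7%), a kappa B-like site of GGGA and CC with any 4 bases between them (17.6%), a STAT6-type site of TTC and GAA with any 4 bases between them (5.85%) and the cAMP response element TGACGTCA (1.55%). The *Ass1* stretch held 1 E-box starting at position -36, 1 GC box at -63 and 1 kappa B-like match at -152. The *Odc1* stretch held 4 GC boxes, at -238, -116, -88 and -15, and the *Sat1* stretch held 2, at -72 and -6. GC content was 75.6% for *Ass1*, 80.0% for *Odc1* and 59.6% for *Sat1*, beside a median of 52.4% over all promoters. These matches describe the letters of the window only.

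**Figure D1:**
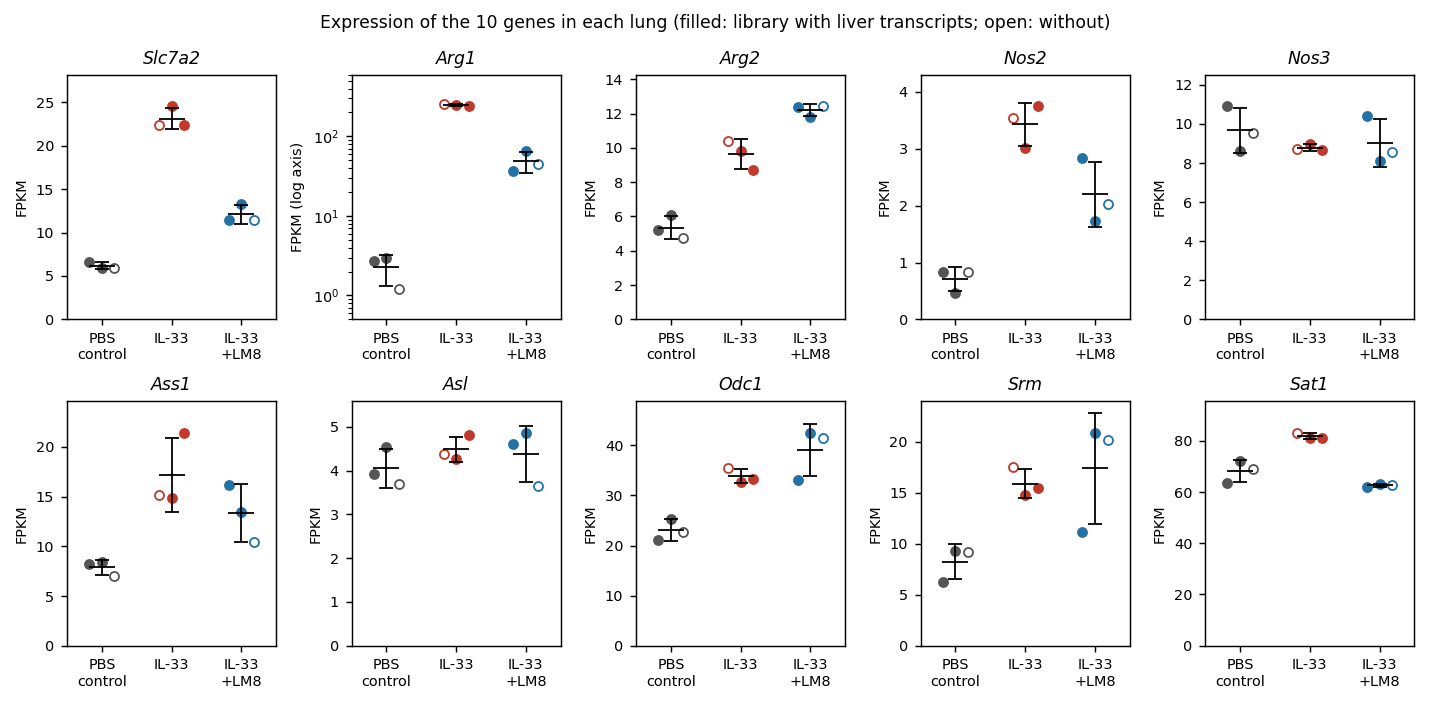
FPKM of each of the 10 genes in each lung, by group (*Arg1* on a log axis, the others on linear axes from 0). Points are mice, with filled points for libraries with liver transcripts and open points for those without, and bars show the mean and SD of 3 mice. *Arg1* runs from 1.19 to 2.94 FPKM in PBS control lungs, from 239.9 to 256 in IL-33 lungs and from 36.4 to 64.7 in IL-33+LM8 lungs.

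**Figure D2:**
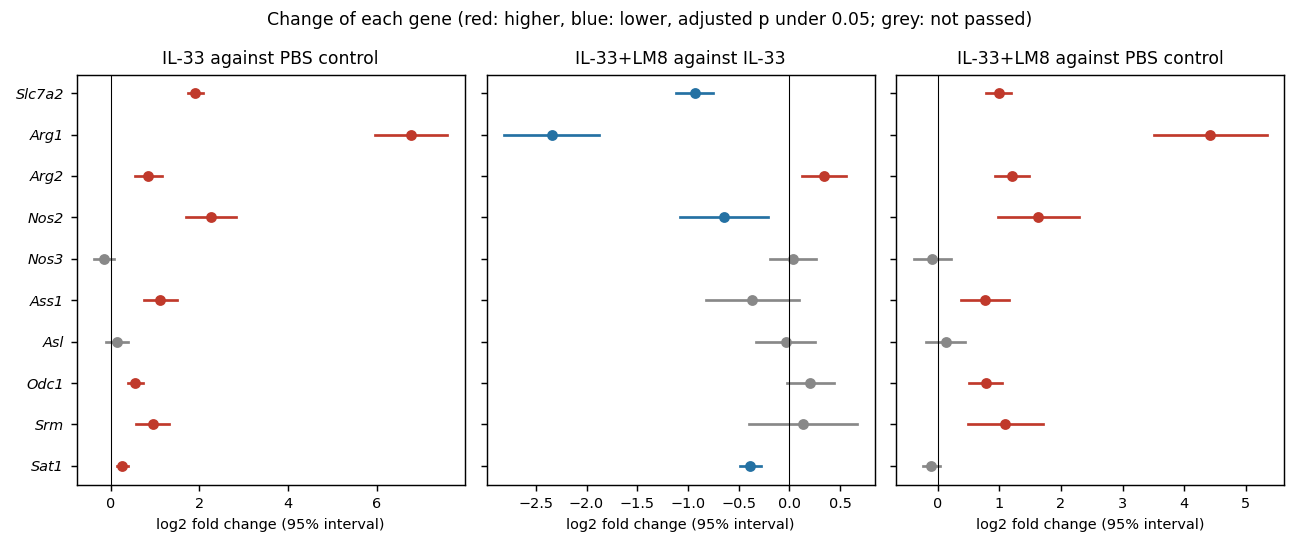
Log2 fold change of each of the 10 genes in the 3 comparisons, with 95% intervals from edgeR's quasi-likelihood fit; the 3 horizontal axes have different ranges. Of the genes that passed, 8 lie to the right of 0 in the first panel. In the second, *Arg1*, *Slc7a2*, *Nos2* and *Sat1* passed to the left of 0 and *Arg2* to the right, and in the third 7 genes passed to the right.

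The transporter *Slc7a2* (ENSMUSG00000031596, chromosome 8) was at 6.62, 5.89 and 5.97 FPKM in the PBS control mice, 22.4, 24.5 and 22.4 FPKM in the IL-33 mice and 11.5, 13.3 and 11.5 FPKM in the IL-33+LM8 mice. The 3 groups did not overlap, and the IL-33+LM8 mice lay between the others. With IL-33 the gene rose by a log2 fold change of 1.91 (SE 0.07, adjusted p = 2.05e-06 by edgeR's quasi-likelihood test), and with LM8 it fell by 0.94 (SE 0.08, adjusted p = 0.000277). It was still higher than in PBS control mice (log2 fold change 0.99, SE 0.09, adjusted p = 0.000368). Of the excess over the PBS control mean in IL-33 mice, 34.9% ± 6.30 (SD, n = 3) was left in the IL-33+LM8 mice. By the smallest distance over the 9 mice on the scale of log2(FPKM + 1) relative to the control mean, among 8574 genes with a mean of at least 5 FPKM, the patterns most like it were those of *Prkcd* (root mean square difference 0.073), *Incenp* (0.076) and *Slc15a3* (0.088).

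Of all 10 genes, *Arg1* (ENSMUSG00000019987, chromosome 10), the cytosolic arginase, had the largest differences in each comparison. Its level was 2.74, 2.94 and 1.19 FPKM in the PBS control mice, 256, 249 and 239.9 FPKM in the IL-33 mice, and 36.4, 64.7 and 45.1 FPKM in the IL-33+LM8 mice. No IL-33+LM8 mouse overlapped either of the other groups. By mean FPKM it was the 9th of the 10 genes in PBS control lungs and the first in IL-33 lungs, and among all genes of the table it moved from rank 11700 to rank 124, and to rank 857 with LM8. The ratio of the mean levels was 108 ± 45.5 for IL-33 over PBS control (SD propagated from 3 mice per group). On the counts its log2 fold change was 6.76 (SE 0.35, 95% interval 5.95 to 7.57, adjusted p = 6.33e-06 by edgeR's quasi-likelihood test), and between 6.44 and 6.98 with each mouse left out in turn.

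With LM8, *Arg1* fell by 2.35 on the log2 scale (SE 0.20, adjusted p = 0.000281 by edgeR's quasi-likelihood test), so that its mean level was 80.4% lower than with IL-33 alone and 18.9% ± 5.89 (SD, n = 3) of the excess over control was left. It stayed above PBS control by a log2 fold change of 4.43 (SE 0.39, adjusted p = 0.000328). In the 3 libraries without liver transcripts, 1 per group, *Arg1* was at 1.19, 256 and 45.1 FPKM, and in the 6 with them its means were 2.84, 244 and 50.5 FPKM. The ratio of IL-33 to PBS control was therefore 215 without and 86.1 with liver transcripts, and that of IL-33 to IL-33+LM8 was 5.67 and 4.84. With a term for liver transcripts in the fit, the log2 fold changes were 6.82 and -2.35, and with the liver-transcript libraries alone (2 against 2) 6.42 and -2.27, all of them past the threshold. The genes whose pattern was most like that of *Arg1* were *Ccl8* (root mean square difference 0.51), *Ccl24* (0.53) and *Mmp12* (0.56), encoding a pair of chemokines and macrophage elastase.

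Markers of macrophages moved with *Arg1*. Of 8 genes in the list for macrophages and alternatively activated macrophages, 7 rose with IL-33 and 1, *Marco*, fell, and their summed level went from between 312 and 386 FPKM in PBS control mice to between 14040 and 15336 FPKM. Most of that sum was *Retnla* (mean 66.4 FPKM in PBS control and 10208 FPKM in IL-33 lungs) and *Chil3* (203 and 4354 FPKM), which other cells than macrophages can also express, while *Csf1r* was at 21.7 and 44.5 FPKM and *Adgre1* at 5.65 and 19.4 FPKM. With LM8 6 of the 8 fell, *Marco* rose and *Retnla* did not pass, and the sum was between 8210 and 12138 FPKM. Eosinophil genes moved likewise: 5 of 5 tested rose with IL-33 and 5 of 5 fell with LM8, with sums of 84.2 to 92.2, 571 to 622 and 136 to 170 FPKM, and the defining gene *Epx* was at 0 in the PBS control mice. Of 8 genes of group 2 innate lymphoid and Th2 cells, 7 rose with IL-33 and 4 fell with LM8, with sums of 13.4 to 14.4, 53.5 to 66.1 and 31.1 to 33.7 FPKM. Beside these counts, 27.4% of all genes tested rose and 27.2% fell with IL-33, and 12.6% rose and 13.9% fell with LM8. The part of these cell types in the *Arg1* result was not tested.

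The mitochondrial arginase *Arg2* (ENSMUSG00000021125, chromosome 12) followed another course. It was at 5.19, 6.10 and 4.77 FPKM in the PBS control mice, 10.4, 9.83 and 8.71 FPKM in the IL-33 mice, and 12.4, 11.8 and 12.4 FPKM in the IL-33+LM8 mice, so that the 3 groups followed each other without overlap. It rose with IL-33 by a log2 fold change of 0.85 (SE 0.13, adjusted p = 0.00125 by edgeR's quasi-likelihood test). With LM8 it rose by a further 0.34 (SE 0.09, adjusted p = 0.0321), and from PBS control to IL-33+LM8 by 1.20 (SE 0.12, adjusted p = 0.000557). The step with LM8 is the less certain one: it did not pass without IL-33 replicate 2 or 3 (0.36 and 0.28) or without IL-33+LM8 replicate 1, 2 or 3 (0.33, 0.36 and 0.34). Nor did it pass over all genes with a count above 0 (0.36), with a replicate block (0.34) or in the liver-transcript libraries alone (0.39), and over 16 alternatives its adjusted p ranged from 0.0094 to 0.13, with the log2 fold change staying between 0.28 and 0.40.

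*Arg2* overlaps *Vti1b* on the opposite strand, and whether reads were counted by strand is not given in the sources used here, so reads of the pair may be mixed. The highest mean level of a gene overlapping *Arg2* was 31.9 FPKM. That was above the group means of *Arg2* itself, which ran from 5.35 FPKM in PBS control to 12.2 FPKM in IL-33+LM8 lungs. *Vti1b* had log2 fold changes of 0.01 and 0.08 with IL-33 and with LM8, neither of which passed. Neutrophil markers moved in the same direction as *Arg2*, with 6 of 6 genes higher with IL-33 and 6 of 6 higher again with LM8. Of all genes tested, 27.4% were higher with IL-33 and 12.6% with LM8. The summed levels of the neutrophil markers were 25.3 to 32.3, 181 to 205 and 838 to 976 FPKM, and their part in the *Arg2* result was not tested.

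Taking the arginases as a pair, *Arg1* made up 29.0% ± 7.91 (SD, n = 3) of their summed FPKM in PBS control lungs, 96.3% ± 0.21 in IL-33 lungs and 79.2% ± 5.03 in IL-33+LM8 lungs. Among the controls this share was 34.5% and 32.5% in the libraries with liver transcripts and 19.9% in replicate 3, without them. *Arg2* was therefore the more abundant arginase transcript in each control mouse, and *Arg1* in each mouse of the other groups. The log2 ratio of *Arg1* to *Arg2*, each with 0.1 FPKM added, was -1.28 ± 0.56 (SD, n = 3) in PBS control lungs, 4.67 ± 0.08 with IL-33 and 1.95 ± 0.46 with LM8, with no overlap between any groups (two-sided exact permutation test, p = 0.1 for each comparison, the smallest possible, and 0.1 after adjustment over 12 ratio tests).

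*Nos2* (ENSMUSG00000020826, chromosome 11), the inducible nitric oxide synthase, was the least abundant of the 10 genes in every group. It was at 0.832, 0.471 and 0.834 FPKM in the PBS control mice, 3.54, 3.01 and 3.74 FPKM in the IL-33 mice, and 2.83, 1.74 and 2.02 FPKM in the IL-33+LM8 mice. All IL-33 mice lay above all others, and all IL-33+LM8 mice above all controls. Its rise with IL-33 was a log2 fold change of 2.26 (SE 0.24, adjusted p = 0.000193 by edgeR's quasi-likelihood test), and it remained higher than control with LM8 by 1.63 (SE 0.28, adjusted p = 0.00557).

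The fall of *Nos2* with LM8, by 0.64 on the log2 scale (SE 0.19, adjusted p = 0.0405 by edgeR's quasi-likelihood test), was close to the threshold. It did not pass without IL-33 replicate 1, 2 or 3 (-0.62, -0.73 and -0.56) or without IL-33+LM8 replicate 2 or 3 (-0.51 and -0.57). Nor did it pass with all 9 mice in 1 fit (-0.63), over all genes with a count above 0 (-0.63) or in the liver-transcript libraries alone (-0.56), and its adjusted p ranged from 0.0048 to 0.23 over 15 alternatives, all of the same direction. The excess over control that was left varied from 37.6% to 78.0% between the 3 IL-33+LM8 mice. With LM8, 6 of 8 macrophage genes fell while 6 of 6 neutrophil genes rose, where 13.9% of all genes fell and 12.6% rose. The part of either list in the *Nos2* result was not tested. *Parvg* (root mean square difference 0.13), *Alox5* (0.13) and *Cybb* (0.13) had the patterns most like that of *Nos2*.

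*Nos3* (ENSMUSG00000028978, chromosome 5), the synthase of endothelium, was at 10.9, 8.60 and 9.54 FPKM in the PBS control mice, 8.73, 8.99 and 8.64 FPKM in the IL-33 mice, and 10.4, 8.08 and 8.59 FPKM in the IL-33+LM8 mice. The groups overlapped throughout. Its log2 fold change was -0.14 with IL-33 (95% interval -0.37 to 0.08, adjusted p = 0.246 by edgeR's quasi-likelihood test) and 0.04 with LM8 (-0.19 to 0.27, adjusted p = 0.818). The endothelial list around it did change: 6 of 7 genes fell with IL-33 and 7 of 7 rose with LM8, where 27.2% and 12.6% of all genes did. Its summed levels were 811 to 880, 486 to 526 and 747 to 769 FPKM. *Nos2* accounted for 6.77% ± 1.45 (SD, n = 3) of the summed FPKM of *Nos2* and *Nos3* in control lungs, 28.1% ± 2.66 with IL-33 and 19.4% ± 1.89 with LM8, so *Nos3* remained the more abundant transcript in every mouse.

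For 1 gene of each arm, the log2 ratio of *Arg1* to *Nos2* was 1.49 ± 0.98 (SD, n = 3) in PBS control lungs, 6.14 ± 0.18 in IL-33 lungs and 4.40 ± 0.75 in IL-33+LM8 lungs. Among the controls it was 1.61 and 2.41 in the libraries with liver transcripts and 0.46 in replicate 3, without them. The difference in this ratio was 4.65 on the log2 scale with IL-33 (SE 0.57) and -1.74 with LM8 (SE 0.45). No group overlapped another (two-sided exact permutation test, p = 0.1 for each, 0.1 after adjustment over 12 tests). *Arg2* and *Nos3* are not in this ratio. With them, the arginases summed to 7.64 ± 1.56 FPKM (SD, n = 3) in PBS control lungs and the synthases to 10.4 ± 1.33 FPKM. These sums were 258 ± 8.73 and 12.2 ± 0.20 FPKM in IL-33 lungs, and 60.9 ± 14.2 and 11.2 ± 1.79 FPKM in IL-33+LM8 lungs.

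**Figure D3:**
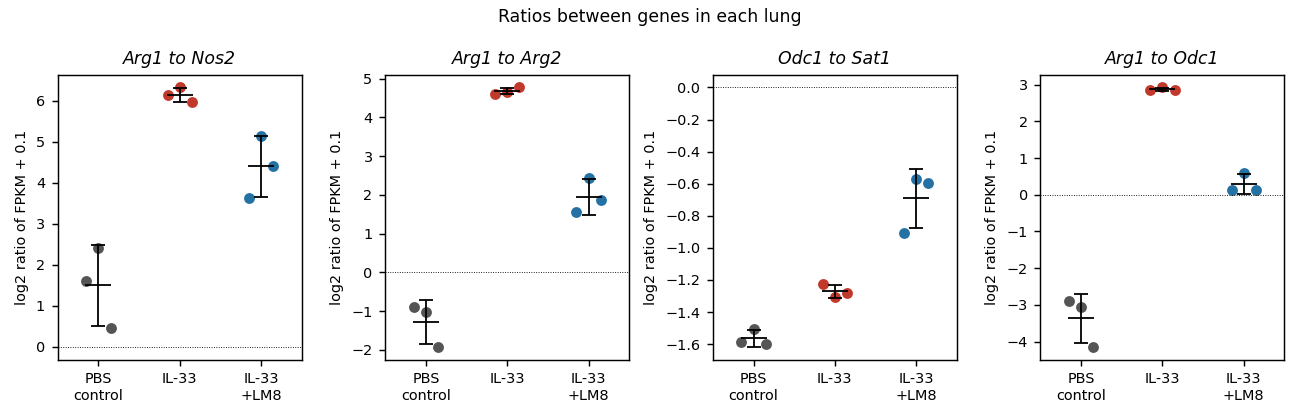
Log2 ratio of FPKM, with 0.1 added to each level, for 4 pairs of genes in each lung. Points are mice and bars the mean and SD of 3; the dotted line marks equal levels. *Arg1* lies below *Arg2* and *Odc1* in every PBS control mouse and above both in every other mouse, whereas *Odc1* stays below *Sat1* in all 9.

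*Ass1* (ENSMUSG00000076441, chromosome 2), argininosuccinate synthase, was at 8.20, 8.42 and 7.06 FPKM in the PBS control mice, 15.2, 14.8 and 21.4 FPKM in the IL-33 mice, and 16.2, 13.5 and 10.4 FPKM in the IL-33+LM8 mice. It rose with IL-33 by a log2 fold change of 1.12 (SE 0.16, adjusted p = 0.000822 by edgeR's quasi-likelihood test). With LM8 the groups overlapped and the log2 fold change of -0.36 did not pass (95% interval -0.82 to 0.10, adjusted p = 0.223), although the gene remained above PBS control by 0.77 (SE 0.17, adjusted p = 0.0128). Within the libraries without liver transcripts the 3 levels were 7.06, 15.2 and 10.4 FPKM, and the ratio of IL-33 to control was 2.16 there and 2.18 in the libraries with them. *Asl* (ENSMUSG00000025533, chromosome 5), argininosuccinate lyase, which takes the next step, was at 3.92, 4.54 and 3.69 FPKM in the PBS control mice, 4.37, 4.27 and 4.82 FPKM in the IL-33 mice, and 4.61, 4.87 and 3.66 FPKM in the IL-33+LM8 mice. These levels overlapped, and its log2 fold change was 0.14 with IL-33 (95% interval -0.10 to 0.39, adjusted p = 0.283) and -0.04 with LM8 (-0.32 to 0.25, adjusted p = 0.87). The 2 enzymes of arginine resynthesis thus gave unlike values, though the difference between them was not tested.

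Of the polyamine genes, *Sat1* and *Odc1* were the most abundant of the 10 genes in control lungs. *Odc1* (ENSMUSG00000011179, chromosome 12), whose upstream stretch with 4 GC boxes is printed with the promoters, encodes ornithine decarboxylase, the first and rate-limiting enzyme of polyamine synthesis. It was at 21.1, 25.4 and 22.6 FPKM in the PBS control mice, 35.5, 32.7 and 33.4 FPKM in the IL-33 mice, and 33.0, 42.5 and 41.4 FPKM in the IL-33+LM8 mice. Every mouse given IL-33, with or without LM8, was above every control. It rose with IL-33 by a log2 fold change of 0.55 (SE 0.07, adjusted p = 0.000474 by edgeR's quasi-likelihood test) and was 0.77 above control with LM8 (SE 0.11, adjusted p = 0.00266). The difference between IL-33+LM8 and IL-33 mice was 0.20 (95% interval -0.03 to 0.44, adjusted p = 0.178) and passed only without IL-33+LM8 replicate 1 (0.31, adjusted p = 0.0068), with adjusted p from 0.0068 to 0.40 over 16 alternatives.

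*Srm* (ENSMUSG00000006442, chromosome 4), spermidine synthase, was at 6.28, 9.24 and 9.17 FPKM in the PBS control mice, 17.5, 14.7 and 15.4 FPKM in the IL-33 mice, and 11.1, 20.9 and 20.2 FPKM in the IL-33+LM8 mice. The IL-33+LM8 mice spread more widely than the IL-33 mice and lay on both sides of them. *Srm* rose with IL-33 (log2 fold change 0.95, SE 0.16, adjusted p = 0.00175 by edgeR's quasi-likelihood test). With LM8 its log2 fold change relative to IL-33 was 0.13 (95% interval -0.40 to 0.67, adjusted p = 0.717), which became 0.38 and passed without IL-33+LM8 replicate 1 (adjusted p = 0.030) and -0.02 without IL-33+LM8 replicate 2, with adjusted p from 0.030 to 0.96 over 16 alternatives. Its excess over PBS control with LM8 was 1.10 (SE 0.26, adjusted p = 0.0191), but did not pass without PBS control replicate 1 (0.94), IL-33+LM8 replicate 2 (0.94) or IL-33+LM8 replicate 3 (0.98), nor in the liver-transcript libraries alone (1.06), where the highest adjusted p was 0.068 and the lowest over all 16 alternatives 3e-05. IL-33+LM8 replicate 1 was the lowest of its group for *Odc1*, *Srm* and *Arg1* and, by small margins, for *Sat1* and *Slc7a2*. The same mouse was the highest of its group for *Nos2*, *Nos3* and *Ass1*.

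*Sat1* (ENSMUSG00000025283, chromosome X), the acetyltransferase that marks spermidine and spermine for export or breakdown, was the most abundant of the 10 genes in PBS control lungs. It was at 63.5, 72.1 and 68.9 FPKM in the PBS control mice, 83.1, 81.1 and 81.1 FPKM in the IL-33 mice, and 61.9, 63.3 and 62.8 FPKM in the IL-33+LM8 mice. The IL-33 mice were the highest, and each IL-33+LM8 mouse lay below each control. The rise with IL-33 was small but past the threshold (log2 fold change 0.26, SE 0.05, adjusted p = 0.00496 by edgeR's quasi-likelihood test), and with LM8 the gene fell by 0.38 (SE 0.04, adjusted p = 0.000926). Its difference between IL-33+LM8 and PBS control was -0.11 (95% interval -0.25 to 0.03, adjusted p = 0.218), and did not pass. Alone among the 4 genes that fell with LM8, it was thus not separated from control by the test.

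*Odc1* and *Sat1*, on opposite sides of the polyamine pool, kept the same order in every mouse. Their log2 ratio was -1.56 ± 0.05 (SD, n = 3) in PBS control lungs, -1.27 ± 0.04 in IL-33 lungs and -0.69 ± 0.19 in IL-33+LM8 lungs. The difference was 0.29 with IL-33 (SE 0.04) and 0.58 with LM8 (SE 0.11), with no overlap between groups (two-sided exact permutation test, p = 0.1 for each, 0.1 after adjustment over 12 tests). The log2 ratio of *Arg1* to *Odc1*, successive enzymes on the way from arginine to putrescine, was -3.37 ± 0.67 in PBS control lungs, 2.87 ± 0.05 with IL-33 and 0.29 ± 0.27 with LM8. This ratio was chosen after its values were seen. Among the controls it was -2.90 and -3.07 in the libraries with liver transcripts and -4.14 in replicate 3, without them. The cell cycle list was set beside these genes because dividing cells make polyamines. Its summed levels were 42.2 to 49.7, 156 to 173 and 81.7 to 111 FPKM. This list had 6 of 6 genes higher with IL-33 and 6 of 6 lower with LM8, where 27.4% and 13.9% of all genes were. It fell with LM8 where *Odc1* and *Srm* did not pass, and its part in the rise of both with IL-33 was not tested.

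A wider list of 50 genes of the same pathways, chosen apart from the 10, was set beside them; 43 of the 50 could be tested. With IL-33, 15 rose, 14 fell and 14 did not pass, with a median log2 fold change of 0.14; the 67.4% that passed stand beside 54.6% of all genes. With LM8, 9 rose, 4 fell and 30 did not pass, with a median of 0.02, and the 30.2% that passed stand beside 26.5% of all genes. These medians stand beside the -0.0053 and -0.0062 of all genes tested. At least 2-fold changes with IL-33 were 5 rises and 3 falls, where 10.8% of all genes rose and 6.24% fell by that much. With LM8 there was 1 such fall, where 3.93% of all genes fell by that much.

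The largest rise in the wider list was that of *Gatm*, which encodes glycine amidinotransferase, the enzyme that moves the amidino group of arginine to glycine in creatine synthesis. It went from 1.83, 1.83 and 1.03 FPKM in the PBS control mice to 23.8, 24.1 and 23.7 FPKM in the IL-33 mice, and was at 7.96, 15.02 and 11.01 FPKM in the IL-33+LM8 mice. The ratio of IL-33 to PBS control for *Gatm* was 13.1 in the libraries with liver transcripts and 23.0 in those without, 1 per group. Its log2 fold changes below are from all 3 mice per group unless stated. Its log2 fold change was 3.92 with IL-33 (SE 0.22, adjusted p = 1e-05 by edgeR's quasi-likelihood test) and it fell by 1.07 with LM8 (SE 0.21, adjusted p = 0.00808). The LM8 difference was -1.05 with an adjusted p of 0.060 in the 4 liver-transcript libraries alone, and its adjusted p over 16 alternatives ranged from 6.8e-08 to that value. *Gamt*, the next enzyme of creatine synthesis, rose by 1.05 with IL-33 (SE 0.34, adjusted p = 0.0339), but did not pass without PBS control replicate 1 (0.78), PBS control replicate 2 (0.97) or any of the 3 IL-33 mice (1.13, 0.93 and 1.10 for replicates 1, 2 and 3), with adjusted p from 0.0028 to 0.098 over 15 alternatives.

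Of 9 tested genes in the class of ornithine, proline, creatine and agmatine, which holds *Gatm* and *Gamt* too, 6 rose with IL-33, 1 fell and 2 did not pass. Over all genes tested, 27.4% rose with IL-33 and 27.2% fell. *Aldh18a1* and *Pycr1*, which encode the first and the last enzyme of proline synthesis from glutamate, rose by log2 fold changes of 1.57 (SE 0.07) and 1.93 (SE 0.35), and *Prodh*, which encodes the first enzyme of proline breakdown, fell by 1.16 (SE 0.10). With LM8 *Prodh* rose by 0.73 (SE 0.12, adjusted p = 0.00421 by edgeR's quasi-likelihood test) and *Aldh18a1* fell by 0.38 (SE 0.11, adjusted p = 0.0385). The fall of *Aldh18a1* did not pass without IL-33 replicate 1, 2 or 3 (-0.39, -0.37 and -0.38) or IL-33+LM8 replicate 3 (-0.40), and its adjusted p ranged from 0.0056 to 0.13 over 16 alternatives. *Pycr1*, at -0.67 with LM8, passed only without IL-33+LM8 replicate 2 (-1.08, adjusted p = 0.018). *Cps1*, the carbamoyl phosphate synthase of the hepatic urea cycle, chosen after its values were seen, was at 0 in the 3 libraries without liver transcripts and between 1.24 and 3.34 FPKM in the 6 with them, and did not pass in any comparison.

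Genes downstream of nitric oxide moved together and in the opposite direction to *Nos2*. All 4 tested genes of the soluble guanylate cyclase and cGMP class fell with IL-33, *Gucy1a1* by 1.07 (SE 0.04) and *Pde5a* by 1.10 (SE 0.08) on the log2 scale, and 3 of the 4 rose with LM8. Over all genes tested, 27.2% fell with IL-33 and 12.6% rose with LM8. *Gucy1a1*, a subunit of the nitric oxide receptor, went from 36.5, 38.2 and 36.5 FPKM to 17.5, 17.8 and 17.8 FPKM, and was at 26.3, 22.5 and 25.1 FPKM with LM8. The endothelial and alveolar epithelial lists moved in the same directions as these genes (5 of 6 alveolar genes fell with IL-33, with *Sftpd* rising, and 3 of 6 rose with LM8). Of 6 airway epithelial genes 2 rose and 3 fell with IL-33, and 3 rose and 1 fell with LM8, with sums of 21692 to 23738, 8522 to 9565 and 17135 to 18514 FPKM. The part of these lists in the result was not tested. Among 9 tested genes of cofactor and inhibitor handling, 2 rose and 3 fell with IL-33, where 27.4% of all genes rose and 27.2% fell.

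The other polyamine genes were counted by class. Beside these counts, 27.4% of all genes tested rose and 27.2% fell with IL-33, and 12.6% rose and 13.9% fell with LM8. By edgeR, none of the 5 tested genes of polyamine synthesis and its regulation outside the 10 (*Amd1*, *Sms*, *Mtap*, *Azin1* and *Azin2*) passed in any of the 3 comparisons, with log2 fold changes between -0.09 and 0.24 with IL-33. Of these, 1 (*Amd1*) had an unadjusted p under 0.05 with IL-33 and passed there with DESeq2, and 0 did so with limma or in the other comparisons. All 3 polyamine transporter genes fell with IL-33, by between 0.26 and 0.81 on the log2 scale, and with LM8 0 of the 3 passed by edgeR, DESeq2 or limma or had an unadjusted p under 0.05. Of 5 tested genes of polyamine catabolism and antizyme, 2 rose and 3 fell with IL-33, and 2 rose with LM8. Of the 3 genes that make and carry hypusine, a lysine of translation factor eIF5A modified with a part of spermidine, 2 rose with IL-33. With LM8, 0 of these 3 passed by any of these tools or at an unadjusted p under 0.05. In the arginine transport class, which leaves out *Slc7a2* and does not hold arginine transporters only, 3 of 5 tested genes rose with IL-33 and none fell. With LM8 1 rose (*Slc3a2*, a partner subunit of transporters) and 1 fell.

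**Figure D4:**
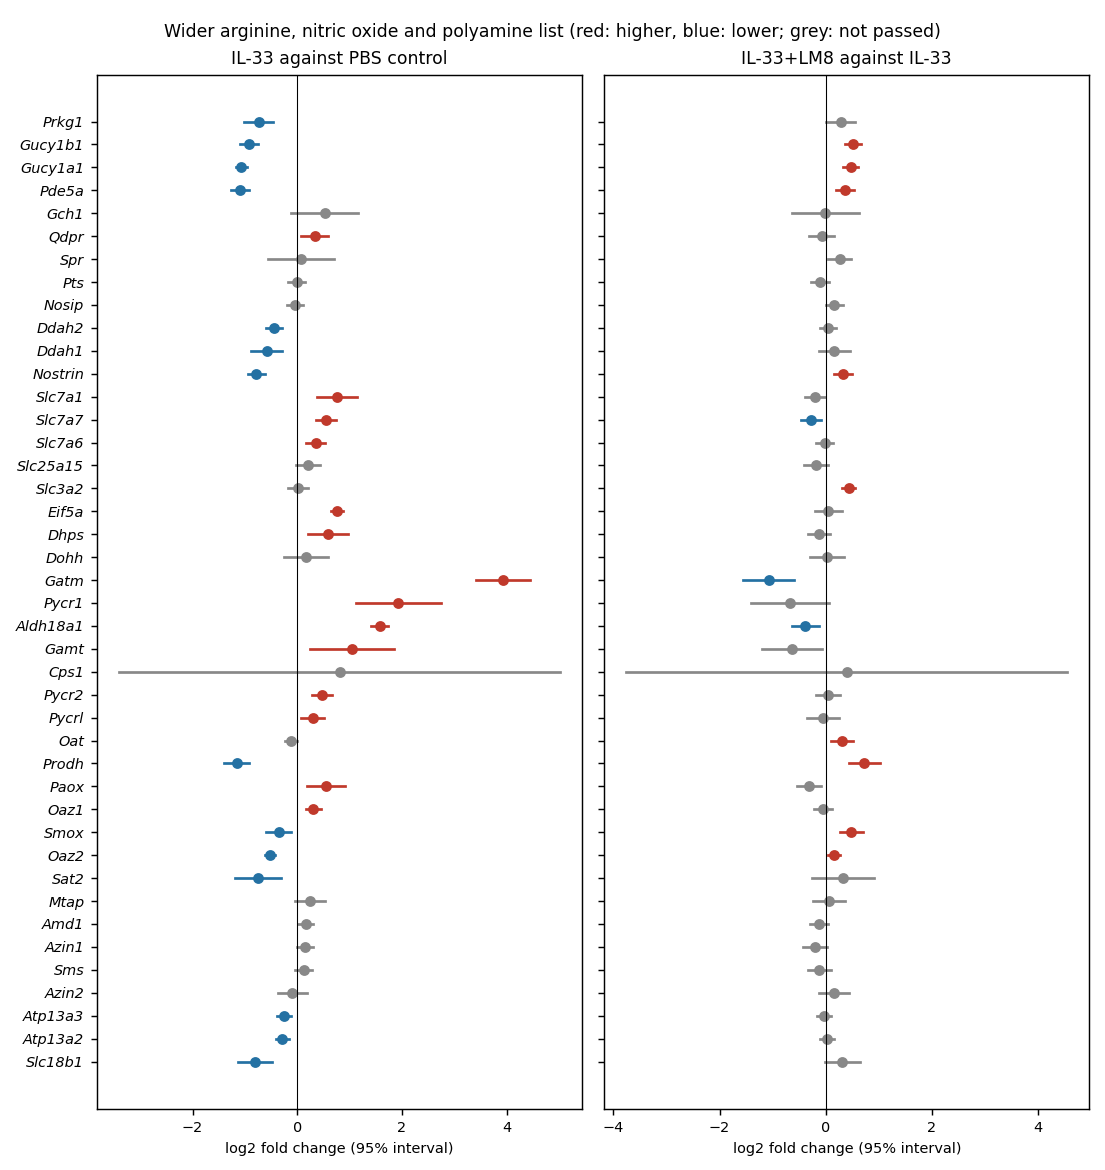
Log2 fold change with 95% intervals of 42 of the 43 tested genes of the wider list, ordered by class, for IL-33 against PBS control and for IL-33+LM8 against IL-33; the horizontal axes differ slightly in range. *Gatm* at 3.92 lies furthest to the right in the first panel, and the 4 genes of the cGMP class lie left of 0 there and right of 0 in the second, where 3 of them passed.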

How the data were processed

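Per the labels, lung RNA of 9 C57BL/6 mice was sequenced. The authors deposited 1 table that holds, for each gene and mouse, a read count and an FPKM value, both made by a sequencing company. The submitters' notes list mm10, HISAT2 2.0, StringTie 1.3.0 and Bowtie 0.12.2 without their roles, and the counting program and its use of strand are not given in the sources used here. Of 32643 genes shared with the GENCODE M21 annotation of GRCm38, only 620 had the same coordinates in the table. Its build is thus not settled, and its gene coordinates are not printed.

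Counts were tested with edgeR 4.0.16 in R 4.3.3 (glmQLFit and glmQLFTest, TMM), with the 6 mice of each comparison fitted alone. Genes entered at a mean FPKM of 0.5 or more over the 9 mice if any of the 6 had a read, giving 16831 genes against IL-33 or PBS control and 16829 for IL-33+LM8 against PBS control. A gene passed at a Benjamini-Hochberg adjusted p under 0.05. SE values were taken from the fold change and the quasi-likelihood F. Alternatives were DESeq2 1.42.0, limma 3.58.1 on log2 of FPKM plus a pseudocount, other size factors and filters, 1 fit for the 9 mice, the replicate number as a block, and single mice omitted; those on liver transcripts were chosen after seeing the data. In a simulation of 200 changed genes (log2 change of 2), a call needed an adjusted p under 0.05 and at least a 2-fold change. By that rule edgeR recovered 184 for IL-33 against PBS control, with 9 false calls among 16831 genes. Smaller changes, and calls without a fold limit, were not simulated. No library was a copy of another, the lowest chi-square per degree of freedom between replicates being 21.9. That replicates are separate mice is taken from the labels, and p-values measure the spread between these samples.

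The 10 genes, the wider list of 50 and the 9 marker lists of 56 genes were chosen with earlier results of these data known. Named genes were the 10, genes of the wider list changed at least 2-fold with IL-33 or with LM8 added, and the 3 genes of nearest pattern to *Arg1*, *Nos2* and *Slc7a2*; classes of the wider list are given by counts. In the wider list, 1 gene that the rule would name, and 1 motif, are not reported here; the gene stays in the counts. Same-numbered mice of PBS control and IL-33+LM8 deviated together (correlations of 0.389, 0.428 and 0.732), and replicate 3 of both lacks liver transcripts; no label ties the numbers to a day or litter. With the replicate block in that comparison, 7 of the 10 genes passed, as without it.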

Additional observations from a re-analysis of the deposited data

How the results depend on the processing

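Every alternative left *Arg1* and *Slc7a2* past the threshold and in the same direction in all 3 comparisons. Among values of the 10 genes and the named genes of the wider list, 675 kept direction and call, 35 lost the call, 6 gained it and 6 changed sign, each without having passed. Of the 10 genes, 5 passed between IL-33+LM8 and IL-33. This became 3 over all genes with a count above 0 (33073 tested) and in the libraries with liver transcripts only, and lay between 3 and 6 with 1 mouse left out, where the 2-fold count was 1 to 2. Without IL-33 replicate 2 or 3, or IL-33+LM8 replicate 2 or 3, it was 3. The 4 genes at least 2-fold higher in IL-33+LM8 than in PBS control became 2 with limma on log2(FPKM + 1). In the wider list, 8 genes at least 2-fold changed with IL-33 became 5 with limma on log2(FPKM + 1), and 4 when only genes at a mean FPKM of 5 or more were tested (30 of them). With LM8, 13 became 5 in the liver-transcript libraries only, and the 2-fold count of 1 became 0 there and 2 over all genes with a count above 0. With 1 mouse left out these were 8 to 14 and 0 to 2. The 8 arose on omitting IL-33 replicate 3, the 0 on omitting IL-33+LM8 replicate 1 and the 2 on omitting IL-33+LM8 replicate 2.

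Among these genes signs changed for *Nos3*, *Asl* and *Srm*, in comparisons where they had not passed. With 1 mouse left out, *Nos3* with LM8 ran from -0.07 (IL-33+LM8 replicate 1 omitted) to 0.11, and against PBS control from -0.20 to 0.02 (PBS control replicate 1 omitted). *Asl* with LM8 was 0.07 in the liver-transcript libraries and ran from -0.13 to 0.09 with 1 mouse left out, above 0 on omitting IL-33 replicate 3 (0.03) or IL-33+LM8 replicate 3 (0.09). *Srm* with LM8 ran from -0.02 (IL-33+LM8 replicate 2 omitted) to 0.38 (IL-33+LM8 replicate 1 omitted). *Vti1b*, which overlaps *Arg2* and is not among these counts, also changed sign without passing, from -0.14 to 0.13 with IL-33 and from -0.04 to 0.22 in IL-33+LM8 against PBS control. The cause was not tested.

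With the replicate number as a block, 8 of the 10 genes passed for IL-33 against PBS control, as without it, and 4 for IL-33+LM8 against IL-33, where *Arg2* (0.34) no longer passed (adjusted p = 0.079). In these 2 comparisons same-numbered mice did not deviate together (correlations from -0.553 to 0.381). The deviations went with liver transcripts there: pairs of libraries alike in them correlated at 0.303 to 0.759, and unlike pairs at -0.555 to -0.446. The highest values, 0.732 and 0.759, were those of IL-33 replicate 1 with PBS control replicate 3 and with IL-33+LM8 replicate 3, all without liver transcripts. In IL-33+LM8 against PBS control the block changed no call of the 10, and each sample correlated best with its own number. Same-numbered mice of these groups were always alike in liver transcripts. Pairs alike in them correlated here at 0.307 to 0.732 as well, and unlike pairs at -0.536 to -0.484.

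Over all genes, 2-fold calls were 1741, 439 and 588 with limma on log2(FPKM + 1) against 2865, 907 and 1233, and 1176, 304 and 469 at a mean FPKM of 5 or more. Without a fold limit, 9193, 4459 and 4997 genes passed, against 5458, 2837 and 3182 at that filter, and 1966 and 2622 of the latter pair in the liver-transcript libraries. Leaving a group with 2 mice assumes that the spread of the others holds for it. Intervals cover the spread of 3 mice per group, and with exact tests no ratio could reach a p under 0.1.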
